A study of Mus musculus with 8 samples.

Results

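The aryl hydrocarbon receptor, a transcription factor that binds dioxins, polycyclic aromatic hydrocarbons and other planar molecules found in smoke, was followed with its best known targets in the lungs of mice that breathed cigarette smoke (CS) or room air (RA). The set was chosen by gene name, with earlier results of these data known: Ahr (the receptor), Arnt (its DNA-binding partner), Ahrr (its repressor) and the targets Tiparp, Cyp1a1, Cyp1b1, Aldh3a1 and Nqo1, 8 of the 33027 genes in the deposited matrix. The data are single-cell RNA profiles of whole lung cells from 4 CS and 4 RA mice, labelled as 2 males and 2 females in each group. All 8 were C57BL/6 mice carrying Sftpc-CreERT2 and the mTmG reporter, in which tamoxifen switches on a green label in cells with an active surfactant protein C promoter, mainly AT2 cells, and both groups received tamoxifen at 8 to 10 weeks of age. From 2 weeks later the CS group breathed smoke of 3R4F reference cigarettes for 6 hours a day on 5 days a week over 10 months, the RA group breathed room air, and lungs were taken 1 day after the last exposure. Dissociated cells were mixed to 10% CD45+ and 90% CD45- cells, so the share of leukocytes was set by hand.

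In the resting cell the receptor sits in the cytoplasm, held by HSP90 and the co-chaperone p23 (Ptges3). A ligand releases it into the nucleus, where it pairs with ARNT and binds DNA elements with the core GCGTG. The pair induces Cyp1a1 and Cyp1b1, monooxygenases that convert aromatic hydrocarbons, as well as Aldh3a1 and Nqo1, which detoxify aldehydes and quinones, and it also induces Ahrr and Tiparp, which in turn restrain the receptor. Nqo1 is shared with NRF2, the regulator of the oxidative stress response, and Tiparp is also an early response gene. In airway cells of smokers Cyp1a1, Cyp1b1, Aldh3a1 and Nqo1 are well known smoke-responsive genes.

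The genes lie apart in the genome (GENCODE M21, GRCm38): Ahr at chr12:35497974-35535038, Ahrr at chr13:74211118-74292331, Arnt at chr3:95434388-95497240, Tiparp at chr3:65528410-65555518, Cyp1a1 at chr9:57687928-57703824, Cyp1b1 at chr17:79701537-79715061, Aldh3a1 at chr11:61207537-61218421 and Nqo1 at chr8:107388225-107403206. Promoter sequence from RefSeq (GRCm38.p6) was matched for 6 of the 8 members, all but Ahr and Aldh3a1, and the 250 bases before each start were searched for GCGTG on both strands, overlapping matches allowed. Ahrr held 3 matches, Arnt, Tiparp, Cyp1a1 and Cyp1b1 held 1 each and Nqo1 held 0. Among all 32851 promoter windows of this length 28.2% held the core and 4.10% the longer TNGCGTG, which in this set was found once, in Ahrr. The windows of the 3 members that are the most direct readouts of the receptor are printed 5′ to 3′ on the gene's own strand, with the core in capitals, as CACGC where the match lies on the opposite strand (Cyp1b1). The Cyp1a1 window precedes the start of the shorter of its 2 GENCODE transcripts (chr9:57697613-57703824), and the longer one starts where the gene does. The match of Cyp1a1 (chr9:57697363-57697612, plus strand) began 54 bases before the start, that of Cyp1b1 (chr17:79715062-79715311, minus strand) 76 bases before it, and those of Ahrr (chr13:74292332-74292581, minus strand) 107, 82 and 27 bases before it.
Cyp1a1: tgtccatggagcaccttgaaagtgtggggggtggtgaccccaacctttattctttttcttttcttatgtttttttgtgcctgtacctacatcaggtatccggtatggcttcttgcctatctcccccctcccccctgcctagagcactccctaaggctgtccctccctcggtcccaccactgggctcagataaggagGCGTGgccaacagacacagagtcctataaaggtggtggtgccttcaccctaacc
Cyp1b1: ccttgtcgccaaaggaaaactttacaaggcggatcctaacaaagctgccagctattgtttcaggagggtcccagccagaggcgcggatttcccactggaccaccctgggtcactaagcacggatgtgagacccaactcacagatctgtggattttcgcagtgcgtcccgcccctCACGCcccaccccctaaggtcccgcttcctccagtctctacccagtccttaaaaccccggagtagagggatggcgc
Ahrr: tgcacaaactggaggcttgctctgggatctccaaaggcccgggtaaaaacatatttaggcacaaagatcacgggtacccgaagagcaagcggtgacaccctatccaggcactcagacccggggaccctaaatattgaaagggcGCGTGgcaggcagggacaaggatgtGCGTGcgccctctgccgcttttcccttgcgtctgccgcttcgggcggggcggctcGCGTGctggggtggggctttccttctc
The elements best known to drive Cyp1a1 lie farther upstream than this window, so a single core here describes the window and not the gene's response.

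A level is given as transcripts per 10,000 averaged across the cells of 1 mouse, that is, the UMIs of a gene divided by all UMIs of the cell and multiplied by 10000. Tests were made on log2(level + 1), so a log2 difference understates the fold of a low gene. The 40074 cells used (20330 CS, 19744 RA) fell into 32 types named by the authors, of which 22 had at least 20 cells in at least 3 mice of each group and were compared. Libraries held 2553 to 6371 cells and 31094695 to 52753531 UMIs. In all 4 CS libraries the sex transcripts went against the label: the mice labelled male held Xist at 7.83 and 8.34 per 10,000, and those labelled female held Ddx3y at 0.925 and 1.08, while the 4 RA libraries matched their labels. By these transcripts mice 1 and 2 of each group were female and mice 3 and 4 male, and this sex was not a term in any fit. The exposure of a library has no such check in these files and rests on its label. In addition, 394 cells (0.958%) carried a barcode also seen in another library. As sums, the marker lists of the endothelial and epithelial types and of alveolar and adventitial fibroblasts were each highest in the type they describe. Single genes departed from this: Bmx (arterial) and Cyp2f2 (club) were highest in basal cells, Scgb3a2 (club) in goblet cells and Nr2f2 (venous) in lymphatic endothelium. Of the non-classical monocyte list, Nr4a1 was highest in peribronchial fibroblasts and Ace in arterial endothelium. Peribronchial fibroblasts also led the smooth muscle list among the 22 types, and cells labelled mast held Cpa3 at 9.22 while Mcpt4 was highest in arterial endothelium, so they are called mast-labelled cells.

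Among the compared types the receptor was highest in blood vessel endothelium and classical monocytes, while lymphatic endothelium, at 0.497, lay below club and goblet cells. Ahr was highest in aerocytes, the capillary cells of gas exchange, at 2.52 ± 0.912 (SD, n = 8 mice), followed by general capillary (gCap) cells at 1.65 ± 0.549, arterial endothelium at 1.33 ± 0.509, classical monocytes at 1.32 ± 0.396 and venous endothelium at 1.25 ± 0.413. Neighbours within these 5 types did not differ by more than the larger SD over mice. The only step of that size in the order of the 22 types lay below these 5, between venous endothelium and club cells at 0.679. For every such step, here and below, the SD pools CS and RA mice and so includes the difference between them. Within each group aerocytes did stand beyond the larger SD above gCap cells, and they were higher in every mouse. The means were 3.17 ± 0.687 against 2.11 ± 0.171 in CS mice and 1.87 ± 0.577 against 1.18 ± 0.319 in RA mice. Arnt was found in all 22 types, from 0.117 in mast-labelled cells to 1.47 ± 0.230 in alveolar fibroblasts, which stood beyond the spread above B cells at 1.15. Tiparp was highest in neutrophil granulocytes at 6.16 ± 1.44, beyond the spread above classical monocytes at 3.50, and lowest in goblet cells at 0.325. Ahrr was at most 0.0412, its mean in arterial endothelium.

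Of the targets, Cyp1a1 averaged at least 0.1 in 4 of the 22 types, Cyp1b1 and Aldh3a1 in 3 each, Nqo1 in 6 and Tiparp in all 22. Cyp1a1 was highest in venous endothelium at 2.62 ± 1.08, beyond the spread above gCap cells at 0.958, with aerocytes at 0.402 and arterial endothelium at 0.255, beyond the spread above all other types. Cyp1b1 led in adventitial fibroblasts at 0.473, venous endothelium at 0.449 and club cells at 0.254, whose steps lay within the spread, and goblet cells followed beyond the spread at 0.0930. Aldh3a1 was a gene of the conducting airway, at 1.79 ± 0.461 in goblet cells, 0.450 in club cells and 0.105 in ciliated cells, both steps beyond the spread. Nqo1 was highest in lymphatic endothelium at 0.431 and ciliated cells at 0.372, and no step of its order exceeded the spread. With RA mice alone the highest type changed for Ahrr (classical monocytes) and Cyp1b1 (venous endothelium), and with CS mice alone it changed for Nqo1 (ciliated cells). Among the 10 types with too few cells for a comparison, Ahr averaged 3.25 in type 1 conventional dendritic cells and 1.06 in basal cells, Ahrr was 0.380 in the macrophages labelled M, and Aldh3a1 was 0.243 in basal cells.

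**Figure D1:**
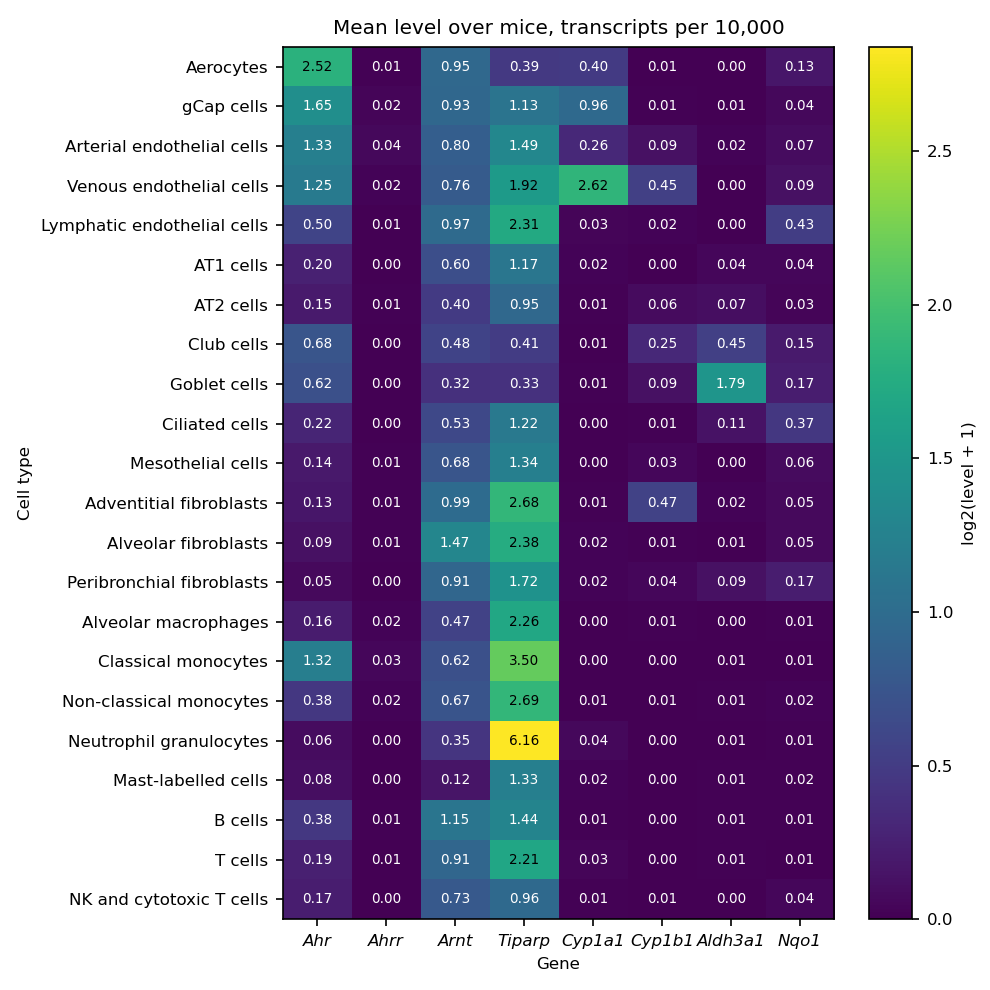
Mean level of each of the 8 genes (columns) in each of the 22 compared cell types (rows), in transcripts per 10,000 over all mice, printed in each cell and coloured by log2(level + 1). Ahr peaks in aerocytes at 2.52, Cyp1a1 in venous endothelium at 2.62, Aldh3a1 in goblet cells at 1.79 and Tiparp in neutrophil granulocytes at 6.16.

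Of the 176 combinations of gene and type, 73 passed the filter of detection in 10% of the cells of either group. Of these 73, limma called 4 (Benjamini-Hochberg adjustment within a type, threshold 0.05), all higher in CS: Ahr in gCap and in ciliated cells, Arnt in adventitial fibroblasts and Cyp1b1 in goblet cells. Over all genes and types 0.712% were called higher and 0.518% lower in CS. The share called higher differed by type, at 6.28% of the genes in gCap cells, 2.72% in ciliated cells, 1.91% in adventitial fibroblasts and 0.152% in goblet cells. No combination was called lower by limma, and 5 of the 73 were lower with an unadjusted p under 0.05, against 17 higher. Over all genes and types 6.3% were lower and 8.92% higher at that p, 15.2% in either direction, and the share in either direction was 35.3% in gCap cells, 24.1% in ciliated cells, 22.6% in adventitial fibroblasts and 12.7% in goblet cells. The groups did not overlap in 10 of the 73 with CS higher, beside 6.01% of all genes, and in 3 with CS lower, beside 4.67% of all genes. This background also differed by type. CS was higher without overlap for 889 of 6556 genes in gCap cells, 1028 of 11077 in ciliated cells and 599 of 6876 in aerocytes. It was so for 743 of 9406 in adventitial fibroblasts, 857 of 11842 in goblet cells, 452 of 7706 in venous endothelium and 223 of 9032 in AT2 cells. The median log2 difference of the 73 was 0.06 beside 0.01 over all genes. An exact two-sided permutation test over mice, run on all 176, could not go below p = 0.0286 with 4 mice against 4 and gave no adjusted p below 0.314. Of the 176, 13 lay higher and 4 lower in CS without overlap, beside 2.95% and 2.13% of all genes with a transcript in the type. A transcript was found in 170 of the 176. With lane as a block, each lane holding 1 CS and 1 RA mouse, only Cyp1b1 in goblet cells was called, and without CS mouse 4 limma called none, with 20 combinations at an unadjusted p under 0.05. Without CS mouse 3 only Arnt in adventitial fibroblasts was called, and without RA mouse 4 only Ahr in gCap cells. The labels do not say that the mice of a group came from separate cages or exposures, so p-values measure the spread between these animals.

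**Figure D2:**
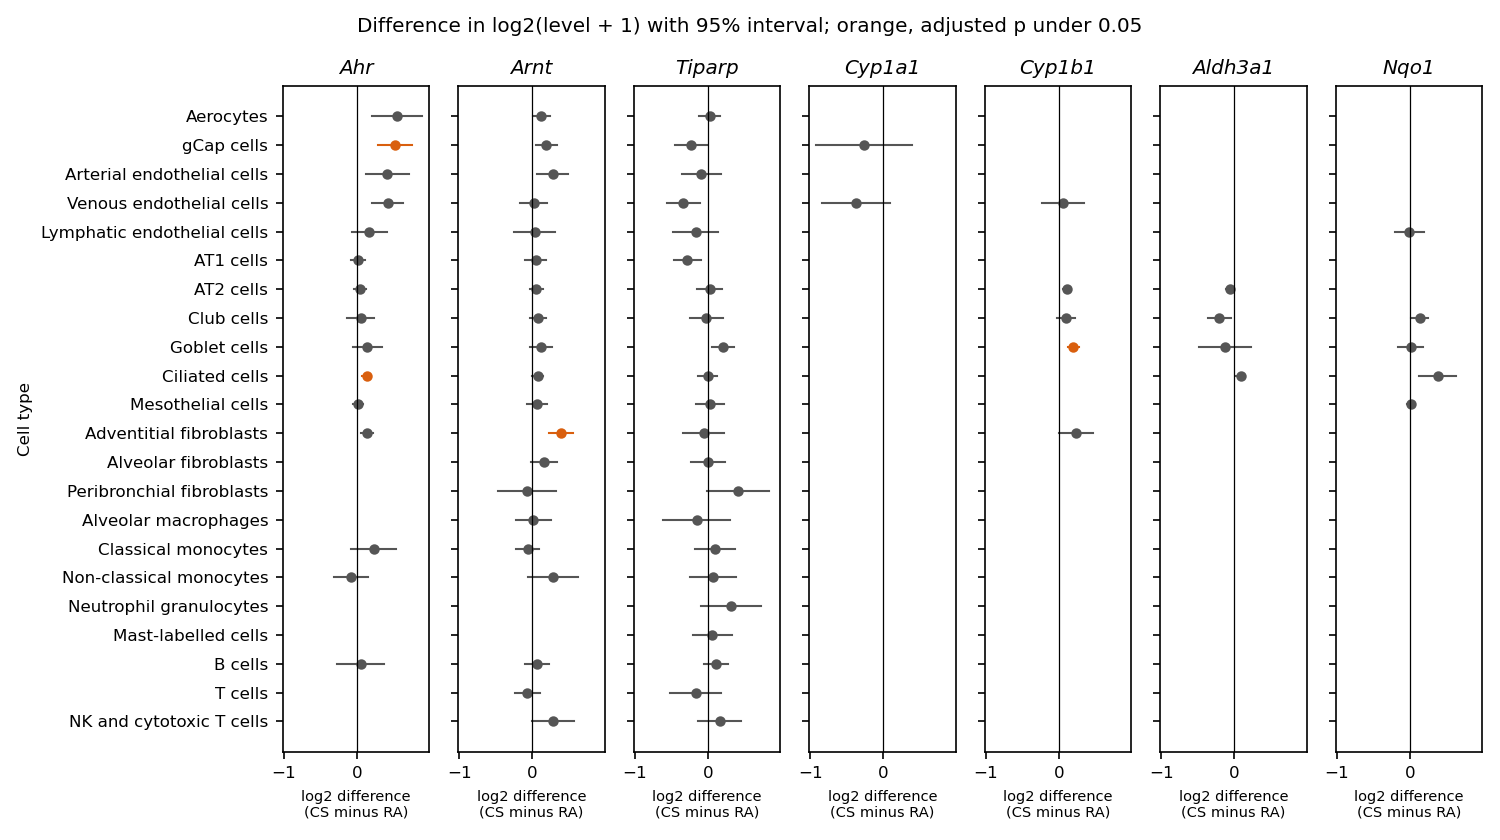
Difference in log2(level + 1) between CS and RA mice (x axis) with its 95% interval from limma for the 73 combinations that passed the filter, 1 panel per gene and 1 row per cell type. Orange marks the 4 called combinations, and the intervals of Ahr lie above 0 in aerocytes, gCap, arterial and venous endothelium, ciliated cells and adventitial fibroblasts. Ahrr has no panel because it did not pass the filter.

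Ahr rose 1.78-fold in the gCap cells of CS mice. Its levels were 2.17, 1.87, 2.15 and 2.26 in CS mice 1 to 4 and 0.744, 1.16, 1.40 and 1.44 in RA mice 1 to 4. All CS mice lay above all RA mice. The means were 2.11 ± 0.171 and 1.18 ± 0.319 (SD, n = 4 each), a log2 difference of 0.52 (SE 0.102, 95% interval 0.29 to 0.75, limma adjusted p = 0.0274). The transcript was found in 51.1% of 4812 CS and 32.4% of 5176 RA gCap cells, at median depths of 3938 and 3713 UMIs. When cells were thinned to 2000 UMIs it was in 33.7% and 17.7%, which left out 387 CS and 509 RA cells below that depth. Such shares, here and below, pool the cells of all mice of a group, so mice with more cells weigh more. RA mice 1 and 2, the lowest of their group for Ahr, gave 2075 and 1713 of these RA cells. Thinning first rounded corrected UMIs to whole numbers, so small fractions counted at full depth but not after thinning. Neutrophil granulocytes, near the lowest level of Ahr, held it in 2.55% of CS and 2.17% of RA cells, at 2098 and 2446 UMIs. The gCap markers Gpihbp1, Kit and Sema3c were also higher in these CS cells, summing to 42.0 to 44.9 against 31.3 to 39.6, and their part in the Ahr difference was not tested. The adjusted p was 0.0792 without CS mouse 1, 0.0679 without CS mouse 3, 0.0863 without CS mouse 4 and 0.0643 without RA mouse 2. It was 0.0646 with lane as a block and 0.0687 with adjustment over all types.

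The other blood vessel types had Ahr levels that were higher in CS but missed the threshold. In aerocytes they were 3.38, 4.05, 2.55 and 2.69 in CS and 1.01, 2.04, 2.25 and 2.16 in RA mice. These groups did not overlap, with a ratio of 1.70 and a log2 difference of 0.55 (SE 0.158, adjusted p = 0.0819, and 0.0367 with labelled sex as a term, a label that the sex transcripts contradict in all 4 CS mice). In venous endothelium the levels were 1.89, 1.21, 1.74 and 1.47 in CS and 0.752, 0.919, 0.918 and 1.08 in RA mice, again without overlap, a ratio of 1.72 and a log2 difference of 0.42 (SE 0.0954, adjusted p = 0.101). Arterial endothelium held 2.09, 1.55, 1.36 and 1.61 in CS and 0.730, 1.74, 0.768 and 0.815 in RA mice. The groups overlapped through RA mouse 2, and the ratio of 1.63 had an adjusted p of 0.178 that became 0.0387 without that mouse. Lymphatic endothelium, at 0.583 ± 0.147 in CS and 0.411 ± 0.176 in RA mice, had an adjusted p of 0.652. The log2 difference of gCap cells minus that of aerocytes was -0.03 (exact permutation p = 0.857).

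Ahr also rose in ciliated cells, the motile cells of the airway lining, from a much lower level. CS mice had 0.213, 0.306, 0.297 and 0.302 and RA mice 0.159, 0.200, 0.155 and 0.141. CS mouse 1 was the lowest of its group but still above all RA mice, and the log2 difference was 0.14 (SE 0.0275, adjusted p = 0.0237) with a ratio of 1.71. The transcript was found in 31.1% of 1882 CS and 21.5% of 1637 RA ciliated cells, at 16551 and 15010 median UMIs, and in 5.94% and 3.37% after thinning (without 13 CS and 35 RA cells). Endothelial markers moved with it: the gCap list averaged 0.619 in CS and 0.399 in RA ciliated cells and the arterial list 0.0642 and 0.0312, both without overlap, while the venous list averaged 0.842 and 0.986. Had the aerocyte, gCap, arterial and venous markers found in ciliated cells brought Ahr along in the ratio of their own cells, it would come to 0.0676 in CS and 0.0350 in RA mice, against means of 0.279 and 0.164. Such estimates, here and below, take each list as found only in its own type, yet Bmx of the arterial list was highest in basal cells. They exceeded the measured Ahr of alveolar macrophages and Fmo2 of ciliated cells, so they do not measure how much was brought along. The part of these markers in the Ahr difference was not tested. The adjusted p was 0.0505 without CS mouse 2, 0.0600 without CS mouse 3, 0.0744 without CS mouse 4 and 0.0698 without RA mouse 4. It was 0.0549 with lane as a block and 0.0690 with adjustment over all types.

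In adventitial fibroblasts Ahr was 0.184 ± 0.0560 in CS and 0.0738 ± 0.0350 in RA mice, without overlap (log2 difference 0.14, adjusted p = 0.0684, and 0.0488 in cells with at most 5% mitochondrial UMIs). In alveolar macrophages, below the filter, CS mice had 0.142 to 0.418 and RA mice 0.0334 to 0.111, also without overlap (exact permutation p = 0.0286, adjusted p = 0.314). Endothelial markers moved with it, the gCap list at 0.639 to 3.44 in CS and 0.0896 to 0.587 in RA macrophages and the aerocyte list at 9.10 and 4.70 on average. In the ratio of their own cells the 4 blood vessel lists would bring Ahr to 0.805 and 0.272, above the measured means of 0.240 and 0.0764. The aerocyte list gave 0.627 and 0.190 of these. Whether its genes in macrophages came from endothelium was not tested. In AT1, AT2 and club cells the CS to RA ratios were 1.08, 1.27 and 1.08, with overlapping mice. The mean was higher in CS in 21 of the 22 types, all but non-classical monocytes, and these types come from the same 8 mice.

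**Figure D3:**
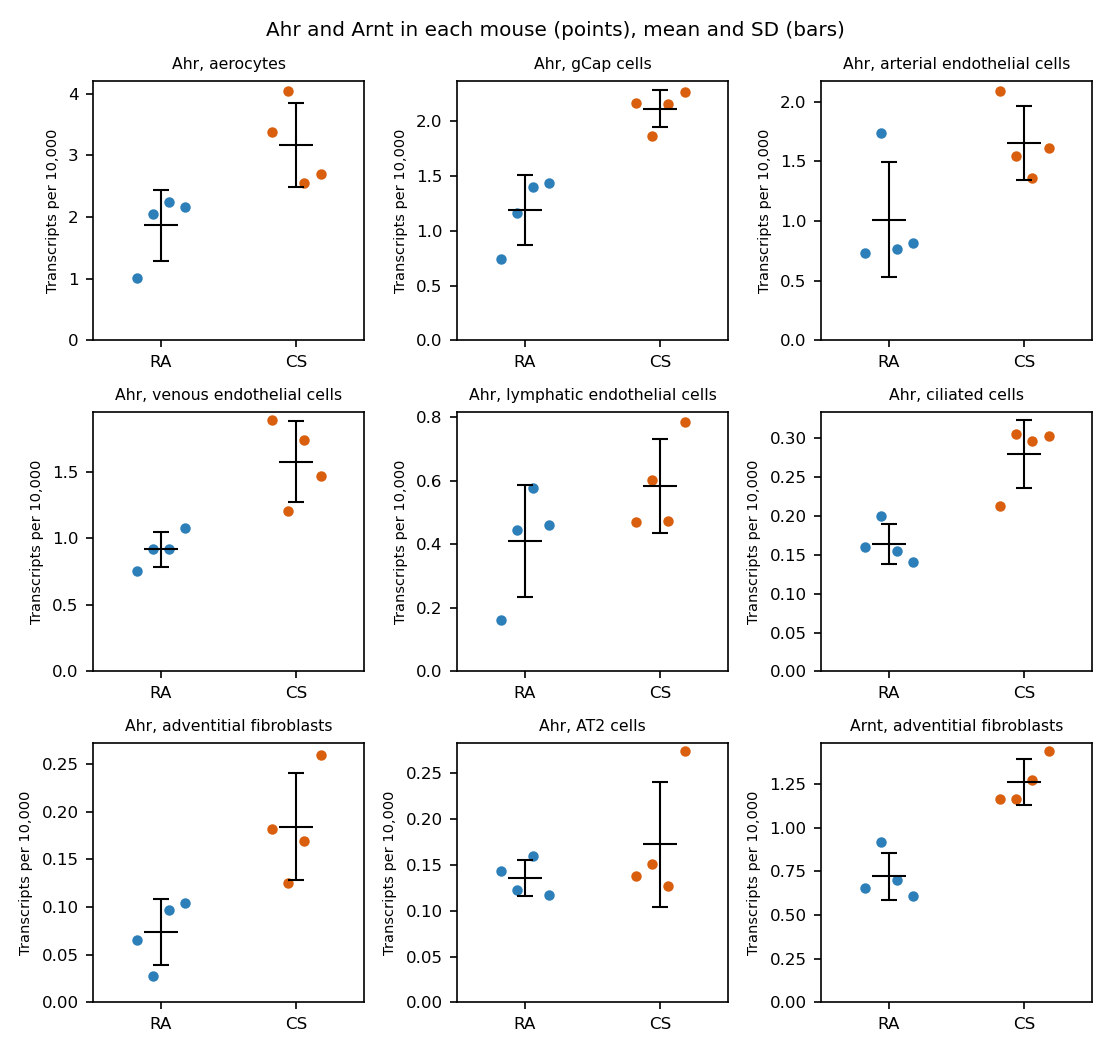
Levels of Ahr in 8 cell types and of Arnt in adventitial fibroblasts, in transcripts per 10,000, with 1 point per mouse (blue RA, orange CS) and bars for mean and SD, n = 4 mice per group. CS mice lie above all RA mice in aerocytes, gCap cells, venous endothelium, ciliated cells and adventitial fibroblasts, and the groups overlap for Ahr in arterial and lymphatic endothelium and AT2 cells.

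Of the cytoplasmic complex that holds the receptor, Hsp90aa1, Hsp90ab1 and Ptges3 are described, and each fell in at least 1 type. Of 66 combinations tested for these 3 genes, limma called 9 lower and none higher in CS, beside 0.518% of all genes and types called lower. All 37 combinations with an unadjusted p under 0.05 were lower, beside 6.3% of all genes and types, with a median log2 difference of -0.30 beside 0.01 over all genes. In gCap cells Hsp90ab1, the constitutive HSP90, was 7.59 ± 1.65 in CS and 17.4 ± 1.82 in RA mice (log2 difference -1.11, adjusted p = 0.0113), and Hsp90aa1, the inducible form, 2.95 ± 0.945 and 6.10 ± 1.80 (adjusted p = 0.0336). In ciliated cells Hsp90ab1 was 20.9 ± 3.62 against 46.8 ± 9.76 (adjusted p = 0.00766). In aerocytes Ptges3 was 1.14 ± 0.0607 against 1.69 ± 0.183 (adjusted p = 0.0360). The other calls were Hsp90ab1 in AT1 cells, aerocytes and adventitial fibroblasts and Hsp90aa1 in ciliated cells and aerocytes. The share of all genes called lower was 3.97% in gCap cells, 1.91% in ciliated cells, 1.19% in adventitial fibroblasts, 0.992% in AT1 cells, 0.989% in aerocytes, 0.291% in alveolar macrophages and 0.0253% in goblet cells. HSP90 serves many client proteins and responds to heat and other stress. The 12 early response and heat shock genes followed as a sign of handling also had 10 of 260 combinations called lower and none higher, with 55 lower at an unadjusted p under 0.05 and a median of -0.11, and their part in the chaperone differences was not tested.

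Arnt rose 1.75-fold in the adventitial fibroblasts of CS mice, the stromal cells around vessels and airways. The levels were 1.16, 1.16, 1.28 and 1.44 in CS and 0.655, 0.919, 0.702 and 0.612 in RA mice. All CS mice were above all RA mice, with means of 1.26 ± 0.130 and 0.722 ± 0.136 and a log2 difference of 0.39 (SE 0.0738, 95% interval 0.23 to 0.55, adjusted p = 0.0236). The transcript was found in 56.3% of 604 CS and 44.4% of 799 RA cells, and in 20% and 13.5% after thinning (without 9 CS and 41 RA cells), from median depths of 9363 and 9584 UMIs. Mast-labelled cells, the type with the lowest level, held it in 5.18% and 4.02% of cells at 3380 and 3542 UMIs. The markers of these fibroblasts (Pi16, Dcn, Col14a1) were lower in CS, at 65.6 to 85.7 against 85.9 to 102, and their part was not tested. The adjusted p was 0.0556 without CS mouse 4, 0.0715 without RA mouse 1, 0.0703 without RA mouse 4 and 0.0888 with lane as a block. In alveolar fibroblasts, where Arnt was highest, the means were 1.60 ± 0.196 and 1.33 ± 0.188 (adjusted p = 0.284), and their log2 difference minus that of adventitial fibroblasts was -0.23 (exact permutation p = 0.0571, adjusted p = 0.305).

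In the capillaries Arnt was 1.03 ± 0.0764 in CS and 0.862 ± 0.0853 in RA aerocytes, without overlap (adjusted p = 0.175). In gCap cells its levels were 1.10, 0.860, 1.13 and 1.14 in CS and 0.635, 0.799, 0.903 and 0.873 in RA mice (adjusted p = 0.0726). That difference was called without CS mouse 2, the lowest of its group (adjusted p = 0.0437), and on summed UMIs (adjusted p = 0.0393). The log2 difference of Arnt was 0.28 in arterial and 0.02 in venous endothelium, and limma called neither. Of 69 combinations for the 5 of 6 relatives and other partners of ARNT that could be tested, limma called 2 lower and none higher, with 23 at an unadjusted p under 0.05 (17 of them lower) and a median of -0.01. Over all genes and types 0.518% were called lower, 15.2% had such a p and 6.3% had it and were lower. Both are clock genes: Npas2 in goblet cells at 0.240 ± 0.0744 against 0.972 ± 0.450 (adjusted p = 0.0479) and Arntl, which encodes BMAL1, in AT1 cells at 0.0404 ± 0.0199 against 0.176 ± 0.0690 (adjusted p = 0.0294). In these AT1 cells the AT1 markers Ager, Rtkn2 and Hopx were lower in CS as well, summing to 228 to 270 against 271 to 313 without overlap, and their part in this and the other AT1 differences was not tested.

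Ahrr, the repressor and itself a target, passed the filter in none of the 22 types. In arterial endothelium, its highest type, the CS mean was 0.0568 ± 0.0454 and the RA mean 0.0255 ± 0.0181 (exact permutation p = 0.286). In gCap cells CS mice had 0.0243 to 0.0299 and RA mice 0.0126 to 0.0356 (exact permutation p = 0.229). It was found in 2.14% of CS and 1.85% of RA arterial cells, and in a smaller share of the cells of every other compared type.

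Cyp1b1 rose in goblet cells, the mucus cells of the airway. CS mice had 0.112, 0.186, 0.163 and 0.215 and RA mice 0, 0.0236, 0.0437 and 0. CS mouse 1 had 23 goblet cells, and RA mice 1 and 4, both at 0, had 40 and 25. The lowest CS mouse was above the highest RA mouse. The means were 0.169 ± 0.0434 and 0.0168 ± 0.0211 (n = 4 each), a log2 difference of 0.20 (SE 0.0325, 95% interval 0.13 to 0.27, adjusted p = 0.0260). The ratio of the means was 10.1, and it rests on 123 corrected UMIs in CS and 32.7 in RA cells. It became 21.5 without RA mouse 3 and 7.54 without either RA mouse at 0. The transcript was in 39.5% of 200 CS goblet cells (95% Wilson interval 33.0 to 46.4) and 7.12% of 309 RA cells (4.75 to 10.5), at median depths of 34758 and 35185 UMIs. After thinning it was in 4.50% of 200 CS cells and 0 of 291 RA cells. These thinned shares hold for 2000 UMIs per cell, and the 0 sets no limit on the share at full depth. Classical monocytes held it in 0 of 386 CS and 0 of 285 RA cells, at 6911 and 7666 UMIs, which allows a UMI in up to 0.777% and 1.05%. Intervals and limits of this kind cover counting error only, and a limit from a count of 0 holds for cells with a UMI at that depth, not for cells that express the gene.

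Other markers moved with this difference. Venous, arterial and adventitial markers found in goblet cells, taken in the ratio of their own cells, would bring Cyp1b1 to 0.0212 in CS and 0.0122 in RA mice. Arterial markers (0.488 to 0.717 in CS, 0.0880 to 0.256 in RA) and smooth muscle markers (0.0174 to 0.0563 against 0 to 0.0142) were higher in CS goblet cells without overlap, and their part was not tested. Bmx of the arterial list was highest in basal airway cells, at 2.65, so this list is not arterial alone in the airway. The call held with lane as a block (adjusted p = 0.0367). It was lost without CS mouse 2 (0.0507), CS mouse 3 (0.0600), CS mouse 4 (0.0573), RA mouse 3 (0.0664) or RA mouse 4 (0.127), with median centring (0.0743) and with genes found in at least 1% of cells (0.187). With at least 50 cells required per mouse, goblet cells had too few RA mice to be compared.

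In AT2 cells, the surfactant-making cells of the alveolus, Cyp1b1 was 0.0864, 0.0812, 0.138 and 0.0961 in CS and 0.0203, 0.0243, 0.0251 and 0.0142 in RA mice. The groups did not overlap and the means lay 4.79-fold apart. Limma called 0 of 9032 genes in AT2 cells, with 671 at an unadjusted p under 0.05, and the log2 difference of 0.11 (SE 0.0200) had an adjusted p of 0.285 within the type and of 0.0465 over all types together. The transcript was in 10.2% of 705 CS and 2.55% of 1176 RA AT2 cells at 10838 and 12169 UMIs (1.73% and 0.437% thinned, without 11 CS and 32 RA cells). AT1 cells held it in 0 of 538 CS cells, which allows a UMI in up to 0.558%, and in 0.229% of 437 RA cells, at 9695 and 10678 UMIs. Venous, adventitial and club markers in AT2 cells, taken in the ratio of their own cells, would bring 0.0109 in CS and 0.00823 in RA mice. In club cells, the secretory cells of the small airway, the means were 0.298 ± 0.0811 and 0.211 ± 0.0843 (log2 difference 0.10, adjusted p = 0.557).

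Where Cyp1b1 was highest, the groups overlapped. In adventitial fibroblasts the levels were 0.433, 0.456, 0.993 and 0.505 in CS and 0.463, 0.245, 0.479 and 0.209 in RA mice, with CS mouse 3 far above the rest (adjusted p = 0.206). In venous endothelium the means were 0.474 ± 0.247 and 0.425 ± 0.270 (adjusted p = 0.885). In gCap cells the levels did not overlap but were very low, 0.0114 to 0.0187 in CS and 0 to 0.00357 in RA mice, in 0.478% and 0.0580% of cells beside 0.0853% and 0.317% of aerocytes.

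Cyp1a1, the classical readout of receptor activity, was tested by limma in venous and gCap cells and called in neither, with 0 at an unadjusted p under 0.05. In venous endothelium CS mice had 2.09, 1.80, 2.14 and 2.22 and RA mice 3.74, 1.28, 4.50 and 3.18. The CS mice lay close together with RA mice on both sides of them, and the means of 2.06 ± 0.183 and 3.17 ± 1.37 gave a log2 difference of -0.37 (SE 0.214, 95% interval -0.84 to 0.09, adjusted p = 0.431). The transcript was in 45.5% of CS and 47.7% of RA venous cells at 5666 and 4402 UMIs (27.1% and 34.5% thinned, without 35 CS and 52 RA cells), beside 0.744% and 0.672% of ciliated cells at 16551 and 15010 UMIs. In gCap cells CS mice held 0.570, 0.497, 0.784 and 0.873 and RA mice 0.527, 0.240, 2.98 and 1.195. RA mouse 3 stood above all others, and the log2 difference of -0.27 (adjusted p = 0.519) turned to 0.058 without it. Mice 3 and 4 of both groups, male by the sex transcripts, all lay above mice 1 and 2 of both groups, female by them. In venous endothelium RA mouse 1 lay above RA mouse 4. The part of sex in these levels was not tested. In aerocytes the means were 0.362 ± 0.197 in CS and 0.442 ± 0.430 in RA mice (exact permutation p = 0.800). In AT1, AT2, club, goblet and ciliated cells no group mean was above 0.0311, that of AT1 cells in RA mice.

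**Figure D4:**
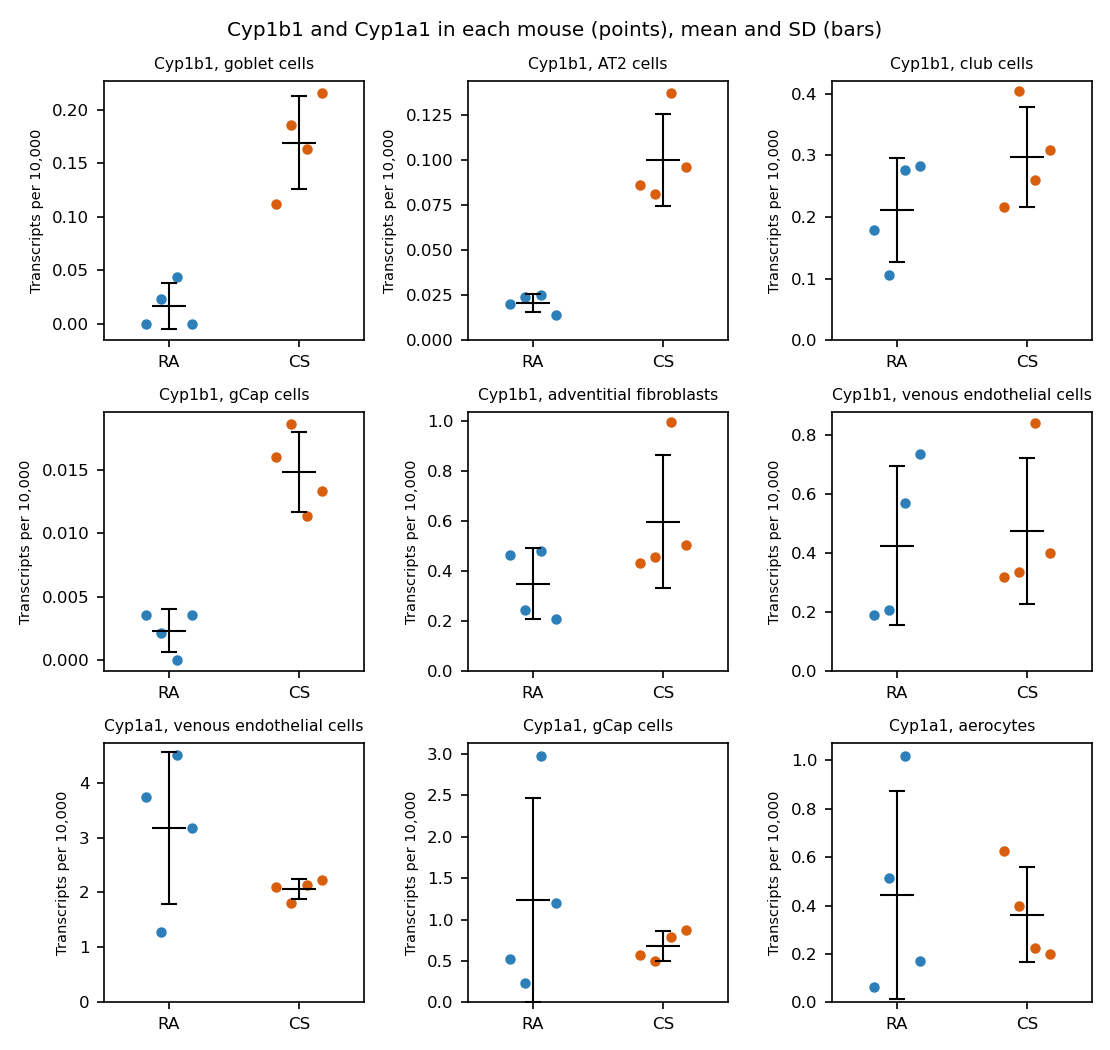
Levels of Cyp1b1 in 6 cell types and of Cyp1a1 in 3 endothelial types, in transcripts per 10,000, with 1 point per mouse (blue RA, orange CS) and bars for mean and SD, n = 4 mice per group. Cyp1b1 of CS mice lies above all RA mice in goblet, AT2 and gCap cells, and Cyp1a1 of venous endothelium spreads from 1.28 to 4.50 in RA mice around 1.80 to 2.22 in CS mice.

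Tiparp, the ADP-ribosyltransferase that limits receptor signalling, was called by limma in none of the 22 types. It had an unadjusted p under 0.05 in 4 of them (1 with CS higher), beside 15.2% of all genes and types. In venous endothelium its levels were 1.25, 1.75, 1.67 and 1.63 in CS and 2.69, 2.32, 2.19 and 1.83 in RA mice, and CS mice were lower without overlap (log2 difference -0.34, SE 0.104, adjusted p = 0.183). In AT1 cells, the flat cells of gas exchange, its levels were 0.765, 0.890, 1.04 and 1.14 in CS and 1.28, 1.22, 1.79 and 1.25 in RA mice. Here too all CS mice were lower, as were the AT1 markers (log2 difference -0.28, SE 0.0862, adjusted p = 0.0995). In gCap cells the means were 0.952 ± 0.134 and 1.30 ± 0.350 (adjusted p = 0.133). In goblet cells the CS mean was the higher one, 0.425 ± 0.139 against 0.226 ± 0.0388 (adjusted p = 0.253). In peribronchial fibroblasts, with 3 mice per group, the means were 2.11 ± 0.450 and 1.34 ± 0.383, without overlap (adjusted p = 0.601). Neutrophil granulocytes, where it was highest, had 6.84 ± 0.730 and 5.48 ± 1.75 (adjusted p = 0.506).

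Early response genes were lower in some of the same types. Summed over the 12 of them, which include Fos, Jun, Egr1 and Atf3, gCap cells held 58.5 to 90.1 per 10,000 in CS and 113 to 154 in RA mice, and venous endothelium 114 to 145 and 160 to 224, neither with overlap. In AT1 cells the sums were 26.0 to 35.0 and 29.0 to 40.4, and in goblet cells 19.7 to 47.4 and 9.76 to 44.5. In ciliated cells, where Hsp90aa1 and Hsp90ab1 fell, they were 49.1 to 120 and 85.5 to 128, with a median log2 difference of -0.57. In gCap cells, where 3.97% of all genes were called lower, limma called Jun, Junb, Atf3, Ier3 and Dusp1 lower, and it also called Dusp1 in AT1 cells and Atf3 in adventitial fibroblasts. In ciliated cells Fos was 16.9 ± 4.72 against 27.5 ± 3.26 (adjusted p = 0.0399) and Ier2 4.45 ± 0.784 against 7.80 ± 1.25 (adjusted p = 0.0159). In alveolar macrophages, where the gCap and aerocyte lists were higher in CS, Egr1 was 2.92 ± 0.781 against 11.7 ± 1.34 (adjusted p = 3.38e-05). The part of those lists in it, and of the early response genes in the Tiparp differences, was not tested.

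Nqo1, the quinone reductase, was followed along the airway. In ciliated cells its levels were 0.451, 0.273, 0.751 and 0.738 in CS and 0.0648, 0.124, 0.439 and 0.137 in RA mice. RA mouse 3 lay inside the CS range and the other RA mice below it, with a ratio of the means of 2.89 that became 5.10 without that mouse. The log2 difference of 0.38 (SE 0.112, 95% interval 0.13 to 0.63) missed the threshold at an adjusted p of 0.0779, and passed it without RA mouse 3 (0.0335) and without CS mouse 2 (0.0337). The transcript was in 43.2% of CS and 17.9% of RA ciliated cells (8.61% and 3.12% thinned), beside 0.572% and 0.555% of T cells at 4716 and 4815 UMIs. In club cells the means were 0.209 ± 0.0619 and 0.101 ± 0.0861 (adjusted p = 0.399), and in goblet cells 0.172 ± 0.103 and 0.164 ± 0.139 (adjusted p = 0.959). Without RA mouse 3 their ratios went from 2.06 to 3.48 and from 1.05 to 1.62. In AT2 cells, below the filter, the range was 0.0221 to 0.0651 in CS and 0 to 0.0195 in RA mice, without overlap (exact permutation p = 0.0286, adjusted p = 0.314). Lymphatic endothelium, its highest type, had 0.429 ± 0.0838 and 0.434 ± 0.0375 (adjusted p = 0.987).

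Aldh3a1, the aldehyde dehydrogenase, was called in none of the 4 types where limma tested it. It had an unadjusted p under 0.05 in 3 of them (1 with CS higher), beside 15.2% of all genes and types. In goblet cells, its highest type, CS mice had 0.847, 1.69, 1.96 and 2.25 and RA mice 2.08, 1.44, 2.16 and 1.85. The groups overlapped, with CS mouse 1 the lowest of all (log2 difference -0.13, adjusted p = 0.770). In club cells the means were 0.348 ± 0.108 and 0.553 ± 0.149 (log2 difference -0.20, adjusted p = 0.373). Goblet markers were lower in these CS club cells too, at 0.991 to 2.36 against 2.64 to 3.96 without overlap, and in the ratio of goblet cells would bring Aldh3a1 to 0.0570 in CS and 0.112 in RA mice. In ciliated cells the Aldh3a1 means were 0.140 ± 0.0424 and 0.0705 ± 0.0323, with the CS mean above (log2 difference 0.09, adjusted p = 0.0925). In the alveolar epithelium CS mice were lower without overlap at very low levels, 0.0506 ± 0.0222 against 0.0971 ± 0.0182 in AT2 cells (adjusted p = 0.609) and 0.0152 ± 0.00954 against 0.0608 ± 0.0191 in AT1 cells (exact permutation p = 0.0286, adjusted p = 0.314). Lymphatic endothelium held it in 0 of 308 CS and 0 of 204 RA cells, at 5224 and 4644 UMIs, which allows a UMI in up to 0.974% and 1.47%. Whether the difference in ciliated cells departs from that in club cells was not tested.

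**Figure D5:**
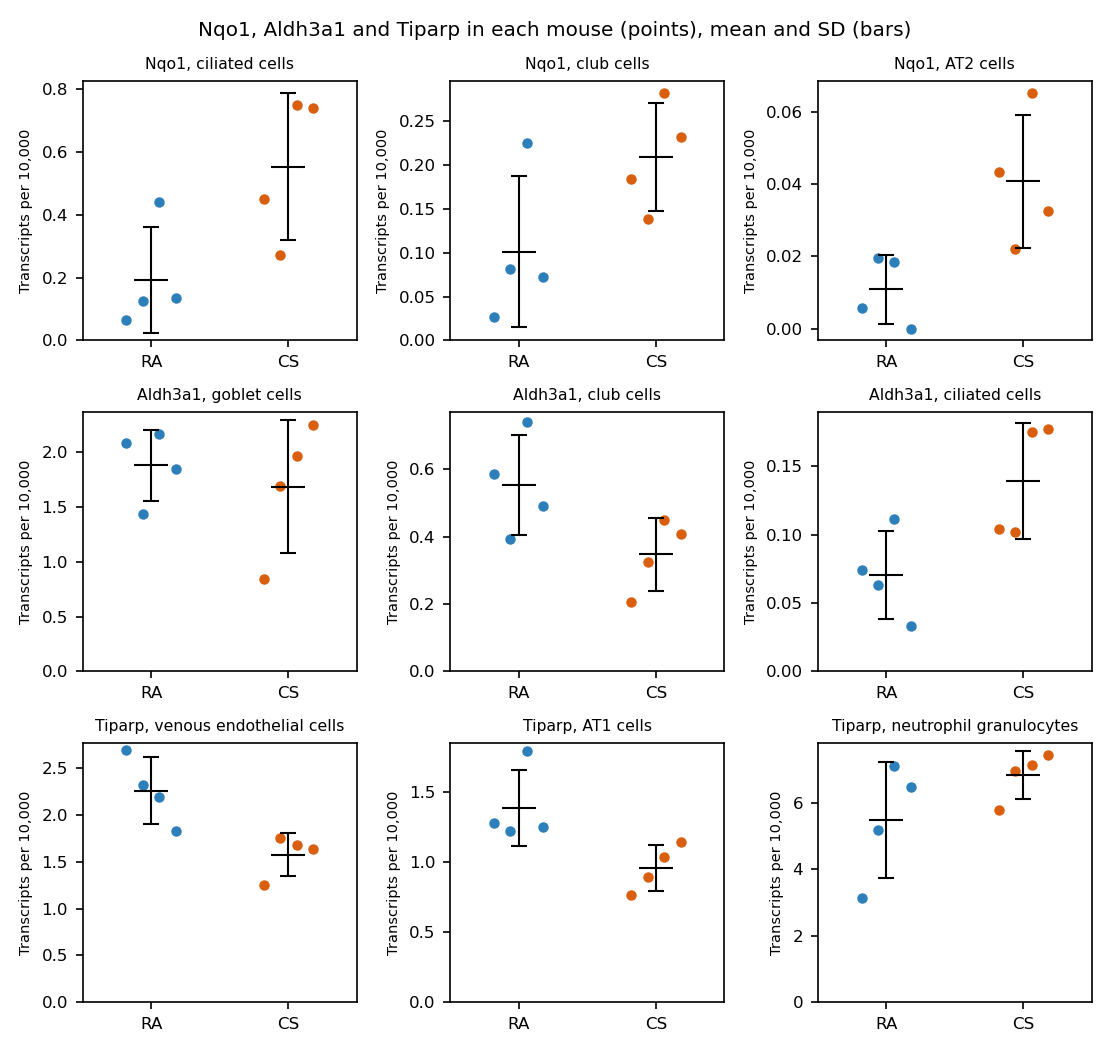
Levels of Nqo1, Aldh3a1 and Tiparp in 3 cell types each, in transcripts per 10,000, with 1 point per mouse (blue RA, orange CS) and bars for mean and SD, n = 4 mice per group. Nqo1 of ciliated cells averages 0.553 in CS and 0.191 in RA mice with 1 RA mouse inside the CS range, and Tiparp of CS mice lies below all RA mice in venous endothelium and AT1 cells.

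Other NRF2 targets were set beside Nqo1. Of 128 combinations for 8 genes, limma called 2 higher and none lower, with 19 at an unadjusted p under 0.05 (8 of them lower) and a median log2 difference of -0.00278. Over all genes and types 0.712% were called higher and 15.2% had such a p. Both were Slc7a11, the cystine transporter, in ciliated cells (0.115 ± 0.0174 against 0.0361 ± 0.0160, adjusted p = 0.00774) and in adventitial fibroblasts (0.613 ± 0.254 against 0.191 ± 0.0834, adjusted p = 0.0376). Further genes reported as receptor targets gave 1 call higher and 2 lower in 151 combinations for the 14 of 18 genes that could be tested, beside 0.712% and 0.518% of all genes and types. With 24 at an unadjusted p under 0.05 (17 of them lower), beside 15.2% (6.3% lower) over all genes and types, the median was -0.01. Fmo2, a flavin monooxygenase, rose in ciliated cells, at 0.120 ± 0.00906 against 0.0649 ± 0.0197 (adjusted p = 0.0259). Its level was 36.7 ± 4.00 and 42.2 ± 10.3 in mesothelium. Mesothelial, fibroblast, club and endothelial markers found in ciliated cells, taken in the ratio of their own cells, would bring Fmo2 to 0.287 in CS and 0.304 in RA mice, above both measured means. Selenbp1 fell in AT1 cells, at 6.76 ± 0.425 against 20.4 ± 14.1 (adjusted p = 0.0203), where RA mouse 1 held 41.6 and the CS to RA ratio went from 0.331 to 0.506 without it, and Ereg, the growth factor epiregulin, fell in alveolar macrophages, at 0.358 ± 0.225 against 1.56 ± 0.493 (adjusted p = 0.00802). The gCap and aerocyte lists were higher in these CS macrophages, and their part was not tested. Enzymes of tryptophan breakdown, which yields ligands such as kynurenine, passed the filter in 7 combinations and limma called none, with 2 at an unadjusted p under 0.05. The highest of them, Kynu in B cells, was 2.08 ± 0.465 in CS and 1.35 ± 0.339 in RA mice (adjusted p = 0.332).

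Related types were compared directly for each of the 8 genes in 4 pairs of types, 32 exact permutation tests in all. The smallest possible p of 0.0286 was reached by 4 of them, and none passed adjustment (lowest adjusted p = 0.229). For Tiparp the CS minus RA log2 difference was -0.28 in AT1 and 0.03 in AT2 cells. For Cyp1b1 it was -0.00157 in AT1 and 0.11 in AT2 cells.

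The genes most like each member were found by Pearson correlation of levels over the 22 types. For Ahr they were Stxbp6 (r = 0.93), Slfn5 and Tbkbp1, all highest in aerocytes. For Cyp1a1 they were Gm43154 (r = 0.98), Kcnh1 and Rp1l1, all highest in venous endothelium. Aldh3a1 was most like Gm32742 (r = 0.99), the mucin Muc5b and Chad, all highest in goblet cells, and Tiparp most like 9330160F10Rik (r = 0.85), Agpat5 and Ndel1, all highest in neutrophil granulocytes. Cyp1b1 was most like Cadm3 (r = 0.80), Nqo1 most like Uhrf1bp1 (r = 0.90), Arnt most like Atp9b (r = 0.91) and Ahrr most like Scn4a (r = 0.82). Within the set, Ahr and Cyp1a1 had the highest correlation (r = 0.59). These are descriptions over types that share the same 8 libraries.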

How the data were processed

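Lungs of 4 CS and 4 RA mice were profiled with 10x 3′ v3 chemistry. The authors aligned reads with STAR 2.7.3a (STARsolo) to GRCm38.p6, counted spliced and unspliced UMIs, subtracted free RNA with SoupX 1.2.2 and named the cell types. The deposited matrix holds these corrected UMIs, which are expected counts: 1.28% of its values are whole numbers within 1e-06. The deposited percent of mitochondrial UMIs reaches 7.33 and is above 5 in 1628 cells.

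From these, 1025 cells labelled multiplets and 7 labelled by cell cycle were left out, each cell was scaled to 10000, and levels were averaged per mouse and type, where the mouse had at least 20 cells. A count model was not used because free RNA had been subtracted. limma 3.58.1 (R 4.3.3) with a mean-variance trend was fitted to log2(level + 1) within each type, for genes with a transcript in 10% or more of the CS or of the RA cells, with Benjamini-Hochberg adjustment. Exact permutation tests were two-sided over all assignments of the mice, 70 for 4 against 4 and fewer in types with fewer mice. Wilson intervals came from scipy 1.17.1. Members and lists were chosen with earlier results of these data known. All 8 members are described, with the genes called in each list. Ugt1a6a, Ugt1a6b, Afmid and Tpsb2 were not analysed here, and 1 further gene of the receptor complex list is not reported here.

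By the labels each of 4 lanes held 1 CS and 1 RA mouse, so lane could serve as a block. Deviations of mice in the same lane had a median correlation of -0.0175 over 17 types, against -0.00192 for other pairs. Alternatives were other pseudocounts, filters, scalings and cell minimums, labelled sex, lane, adjustment over all types and leaving out each mouse.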

Additional observations from a re-analysis of the deposited data

Results flagged for a closer look

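In 6 of 48 groups of 4 mice, 1 mouse stood far from the other 3 of its group by Dixon's criterion, and chance alone flags about 1 in 20 groups, here 2.4. For Ahr these were CS mouse 1 in ciliated cells at 0.213, where the others held 0.297 to 0.306, RA mouse 2 in arterial endothelium at 1.74 (others 0.730 to 0.815) and RA mouse 1 in aerocytes at 1.01 (others 2.04 to 2.25). Arnt of gCap cells was 0.860 in CS mouse 2 (others 1.10 to 1.14), Tiparp of AT1 cells 1.79 in RA mouse 3 (others 1.22 to 1.28) and Cyp1b1 of adventitial fibroblasts 0.993 in CS mouse 3 (others 0.433 to 0.505).

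The CS minus RA difference departed between related types in 4 of 32 comparisons at the smallest p that the exact permutation test can give, 0.0286, and in none after adjustment (0.229). The log2 difference of AT1 minus that of AT2 cells was -0.31 for Tiparp, -0.041 for Cyp1a1 and -0.11 for Cyp1b1. That of gCap cells minus that of aerocytes was 0.029 for Cyp1b1.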

How the results depend on the processing

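Calls of members higher in CS numbered 4 with all mice, 0 to 4 when 1 mouse was left out, 1 with lane as a replicate block and 3 to 5 under the other settings. None was called lower by limma under any setting, with 3 to 6 lower at an unadjusted p under 0.05. Combinations without overlap numbered 13 higher and 4 lower, became 15 to 24 and 4 to 8 when 1 mouse was left out, and the 24 came without RA mouse 3, the lower counts of 7, 8 and 8 without RA mice 1, 2 and 4. Over all genes with a transcript in the type, 2.95% and 2.13% lay higher and lower without overlap with all mice, and 4.07 to 4.94% and 2.94 to 3.85% when 1 mouse was left out (4.94% higher without RA mouse 3). Fewer mice make overlap less likely by construction. Differences between related types at an unadjusted p under 0.05 numbered 4, and 2 on summed UMIs. Leaving out 1 mouse gave log2 differences from -0.50 to 0.058 for Cyp1a1 in gCap cells, reversed without RA mouse 3, and the cause was not tested.

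Of 25 log2 differences followed, leaving out 1 mouse kept 177 values on their side of the threshold, took 16 below it, brought 4 above it and reversed 1. The other settings kept 303, took 7 below and brought 4 above. With the lane block the 3 lost calls were both of Ahr and that of Arnt. Whether the low values of Ahrr, and of Cyp1a1 outside blood vessels, would rise with depth was not tested. The ratio of means moved most without RA mouse 3, from 10.1 to 21.5 for Cyp1b1 in goblet cells.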
